A study of Mus musculus with 92 samples.

Results

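The livers described here came from 5 male CD-1 mice that had received 5 mg/kg HFPO-DA once a day by gavage for 9 months. They were chosen by their labels (male, 9 months, 5 mg/kg) and make up 5 of the 92 libraries in the series. They were set against 4 males of the same age class gavaged with 0 mg/kg. HFPO-DA is hexafluoropropylene oxide dimer acid, a short perfluorinated ether acid of the PFAS family. All mice were wild type by their labels, and CD-1 is an outbred stock, so the animals of a group were not genetically identical. Each library came from a formalin-fixed, paraffin-embedded liver section that was scraped from its slide, so it held every cell type of that section. RNA was measured by TempO-Seq, in which pairs of short probes are ligated on their target and counted by sequencing. The labels treat the 9 libraries as 9 separate mice, and what follows compares replicates 1 to 4 at 0 mg/kg (the controls) with replicates 1 to 5 at 5 mg/kg.

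PPAR-alpha, the product of Ppara, is a nuclear receptor that fatty acids and many fatty-acid-like chemicals can activate. It pairs with RXR and binds direct repeats of a half-site that are separated by a single base. In rodent liver its targets include the enzymes of peroxisomal and mitochondrial fatty acid oxidation, the Cyp4a omega-hydroxylases, acyl-CoA thioesterases, fatty acid binding proteins and lipid droplet proteins. Rodent livers exposed to such chemicals for long periods are known for enlarged hepatocytes, more peroxisomes and a higher rate of cell division.

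Levels are given as CPM, counts scaled to a common library total after TMM scaling, a correction for library composition. Changes are log2 ratios from edgeR's quasi-likelihood test, with the standard error (SE) of the log2 change and p adjusted by Benjamini and Hochberg over all 11371 genes tested. A gene is said to have risen or fallen where the adjusted p was under 0.05. The model held all 24 male 9-month libraries, which share one estimate of the spread. The 9 libraries held between 4929678 and 7717469 counts.

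At 5 mg/kg 729 genes rose (6.41% of the genes tested) and 708 fell (6.23%), and the median log2 change over all genes tested was 0.02. Of these, 482 rose and 352 fell by more than 1 on the log2 scale. Many genes that take up, bind, cleave and oxidise fatty acids rose, among them Ehhadh, Crat, Cd36 and Acot1, which were higher in all 5 treated mice than in any control. How many of all genes tested separated the groups in this way was not counted. Many genes of amino acid breakdown, the urea cycle, one-carbon metabolism, bile acid synthesis, complement and the male-biased liver programme fell.

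Replicates 4 and 5 stood apart from the other 3 and from each other. Pearson's r of log2(CPM + 1) over the tested genes was 0.968 to 0.972 among replicates 1 to 3, and 0.927 to 0.943 for pairs with replicate 4 or 5. Pairs of controls gave 0.942 to 0.954, a range that touches the one for pairs with replicate 4 or 5. By this measure replicates 1 to 3 were more alike than the controls were. In replicate 4 the summed CPM of 14 pericentral hepatocyte markers was 955, against 7458 to 9416 in replicates 1 to 3 and 7535 to 17033 in the controls. In replicate 5 the sum of 12 periportal markers was 749, against 3426 to 4607 in the other treated mice and 7669 to 15440.3 in the controls. The Y-linked genes Ddx3y, Eif2s3y, Kdm5d and Uty summed to 14.6 CPM in replicate 5 and to at least 56.5 CPM in the other 8 libraries. Without replicates 4 and 5, 432 genes rose (3.73%) and 367 fell (3.17%). Of the 1437 genes called with all 9 libraries, 1432 could be tested without the pair, 744 were called again in the same direction, and none changed sign. Lists whose members are counted below are given both ways, and most named genes whose call ended without the pair are given with the adjusted p without it.

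Peroxisomal fatty acid oxidation shortens very long and branched fatty acids. In this list 11 of 22 tested members rose and 3 fell (median log2 change 0.76). The 3 that fell were Scp2, Pecr and Nudt7, which is also on the male-biased list. Without replicates 4 and 5, 12 rose and 2 fell (median 0.97). Ehhadh, the bifunctional enzyme that catalyses the middle steps of the pathway, stood at 375, 343, 609 and 470.3 CPM in the controls. In treated replicates 1 to 5 it stood at 18105, 17908, 18912, 5622 and 15989 CPM. The groups did not overlap, and replicate 4 lay far below the other treated mice while still above every control (log2 change 5.09, SE 0.33, adjusted p = 5.61e-11). Crat, which moves acetyl groups onto carnitine, read 2.35, 7.14, 13.6 and 6.94 CPM in the controls and 96.6, 91.7, 82, 50.2 and 138 CPM in the treated mice (log2 change 3.6, SE 0.41, adjusted p = 1.51e-06). For Crat too every treated mouse was above every control. Hsd17b4, the other bifunctional enzyme, missed the threshold with all libraries (log2 change 0.59, SE 0.2, adjusted p = 0.0514) and passed it without replicates 4 and 5 (log2 change 0.82, adjusted p = 0.00617); it is named here after its values were seen.

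Most genes for building peroxisomes did not pass the test: 3 of 18 tested members rose and 0 fell, with a median log2 change of 0.04, and without the pair 3 rose and 0 fell (median 0.08). Pex11a, which elongates peroxisomes before they divide, was the largest of the 3, at 20.5, 36.7, 30.2 and 25.9 CPM in the controls and 184, 140, 142, 100.3 and 262 CPM in the treated mice (log2 change 2.54, SE 0.34, adjusted p = 2.41e-05). Pex19, a carrier for peroxisomal membrane proteins, rose by 0.84 (adjusted p = 0.00134), though replicate 4 at 240.4 CPM lay within the control range of 200.2 to 275 CPM.

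**Figure D1:**
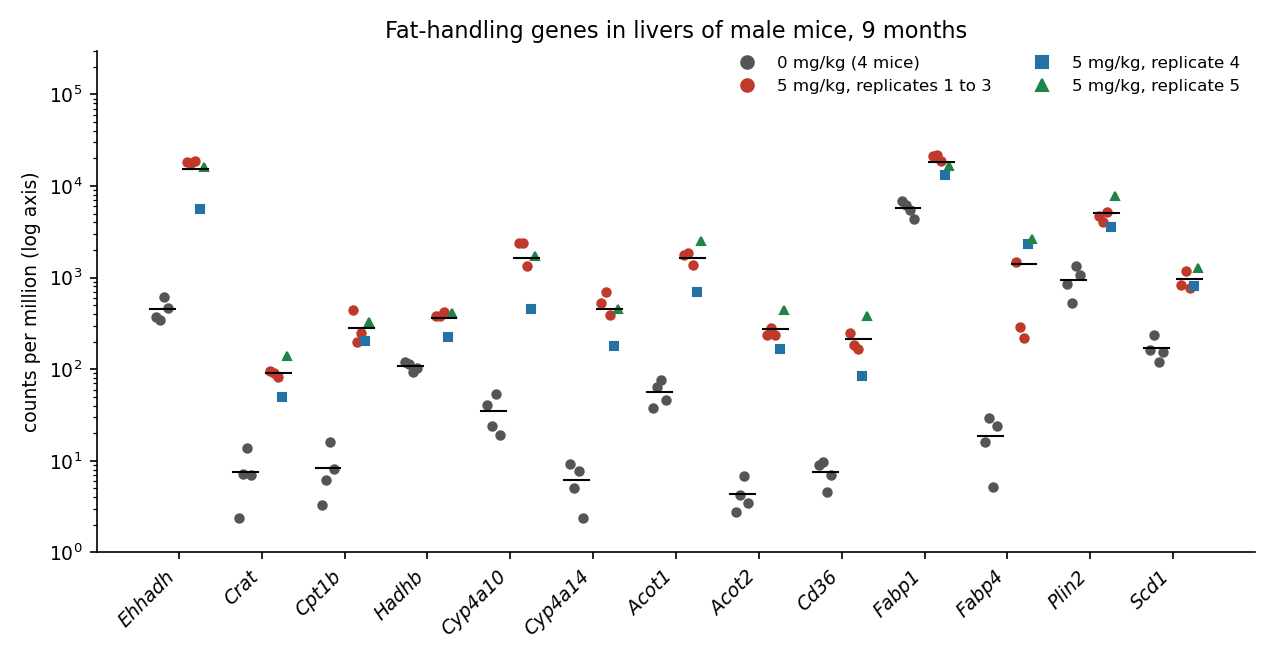
CPM on a log axis of 13 fat-handling genes in each 9-month male, with the 4 controls in grey and the 5 treated mice in colour (replicate 4 a square, replicate 5 a triangle); the short lines are group means. Every treated mouse lies above every control for all 13 genes, which were picked from genes that rose. Replicate 4 is the lowest of the treated mice for all but Cpt1b, Fabp4 and Scd1.

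Most of the tested mitochondrial fatty acid oxidation genes rose: 14 of 22 tested members rose and 0 fell, with a median log2 change of 0.9. Without replicates 4 and 5, 16 rose and 0 fell (median 1.06). Cpt1b, the muscle form of the enzyme that loads long-chain fatty acids onto carnitine, rose from 3.33, 6.12, 16.2 and 8.04 CPM to 438, 199, 246, 205 and 325 CPM (log2 change 5.06, SE 0.44, adjusted p = 9.06e-08). The liver form, Cpt1a, did not pass the test, at 8.8, 12, 1.11 and 6.94 CPM and 16.8, 15.2, 16, 16.4 and 10.2 CPM (log2 change 1.05, SE 0.44, adjusted p = 0.129). Hadhb, a subunit of the trifunctional protein, stood at 94 to 119 CPM in the controls and 226 to 422 CPM in the treated mice (log2 change 1.76, SE 0.17, adjusted p = 9.06e-08). Decr1, which prepares unsaturated fatty acids for oxidation, rose from 274 to 381 CPM to 705 to 1287 CPM (log2 change 1.72, SE 0.18, adjusted p = 2.22e-07). The list's median difference from the control mean in log2(CPM + 1) was 1.19, 1.0, 1.13, 0.19 and 0.89 in treated replicates 1 to 5, so replicate 4 showed the smallest shift.

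Among ketone body genes 4 of 7 tested members rose and 0 fell, with a median log2 change of 0.79, and without the pair 5 rose and 0 fell (median 1.01). Bdh1, which interconverts the main ketone bodies, rose by 0.96 (adjusted p = 0.00112), and Acat1, a thiolase, by 0.79 (adjusted p = 0.0019). Slc16a1, a transporter of lactate and ketone bodies, rose by 1.23 (adjusted p = 0.00573).

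Omega-oxidation starts at the far end of the fatty acid chain. Here 5 of 12 tested members rose and 2 fell, with a median log2 change of 0.8, and without the pair 5 rose and 1 fell (median 0.87). Cyp4a14, a fatty acid omega-hydroxylase, stood at 9.19, 5.1, 7.74 and 2.37 CPM in the controls and 529, 690.4, 395, 179 and 451 CPM in the treated mice (log2 change 6.2, SE 0.67, adjusted p = 3.65e-06). Cyp4a10, a close relative, went from 40.7, 24.1, 54.2 and 19.4 CPM to 2371, 2370.5, 1352, 452 and 1724 CPM (log2 change 5.58, SE 0.6, adjusted p = 3.3e-06). Both were lowest in replicate 4 and clear of the controls in every treated mouse. Aldh3a2, which oxidises the fatty aldehydes that follow, rose from 372 to 780 CPM to 3006 to 8151 CPM (log2 change 3.37, SE 0.28, adjusted p = 5.97e-09). In the other direction Cyp4f14, which hydroxylates leukotrienes and fatty acids, fell from 71.4, 65.5, 54.5 and 51 CPM to 6.07, 19.2, 7.18, 4.13 and 2.63 CPM (log2 change -2.94, SE 0.35, adjusted p = 3.56e-06). The Cyp4a genes are near-identical neighbours, and whether their probes read each other's RNA was not tested.

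For the thioesterases that free fatty acids from coenzyme A, 3 of 9 tested members rose and 0 fell, with a median log2 change of 1.63, and without the pair 4 rose and 0 fell (median 1.38). Acot1, the cytosolic form, stood at 37.8, 63.5, 76.3 and 45.7 CPM in the controls and 1747, 1870.3, 1385, 696 and 2482 CPM in the treated mice (log2 change 4.87, SE 0.41, adjusted p = 7.99e-08). Acot2, the mitochondrial form, went from 2.74, 4.29, 6.82 and 3.47 CPM to 233, 282, 235, 168 and 442 CPM (log2 change 5.96, SE 0.4, adjusted p = 6.82e-10). Acot3, a peroxisomal form, rose from 2.21 to 23.3 CPM to 151 to 413 CPM (log2 change 4.5, SE 0.72, adjusted p = 0.000281). All 3 were higher in each treated mouse than in any control, and as members of one gene cluster they may share probe signal.

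For fatty acid uptake, binding and activation, 10 of 19 tested members rose and 1 fell, with a median log2 change of 1.32; without the pair, 11 rose and 1 fell (median 1.62). Cd36, the surface translocase for fatty acids, stood at 9.0, 9.79, 4.61 and 6.94 CPM in the controls and 249, 184, 164, 84 and 377 CPM in the treated mice (log2 change 4.8, SE 0.53, adjusted p = 3.65e-06). Fabp1, the fatty acid binding protein of hepatocytes, rose from 6892, 6194, 5461 and 4339 CPM to 21244, 22089, 18843, 13106 and 16399 CPM (log2 change 1.68, SE 0.21, adjusted p = 3.3e-06). Both separated the groups completely. Fabp4, the form best known from fat cells and macrophages, was at 15.8, 29.2, 5.16 and 24.1 CPM in the controls and at 1463, 289.9, 217, 2347 and 2638 CPM in the treated mice (log2 change 6.23, SE 0.74, adjusted p = 1.25e-05). It varied more than 10-fold among the treated mice, with replicates 2 and 3 lowest and replicate 5 highest. Fabp2, the intestinal form, rose by 1.32 (adjusted p = 0.00493), but replicate 5 at 363 CPM was within the control range of 356 to 681 CPM.

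Of the other markers of fat cells, Cidec and Pparg rose beside Fabp4, while Adipoq, Lep and Retn stayed under 1 CPM in all 9 libraries. The 9 markers of fat cells summed to 6.26 to 31.4 CPM in the controls and 266 to 2689 CPM in the treated mice, nearly all of it Fabp4. In the macrophage list 2 of 12 tested members rose and 0 fell, with a median log2 change of 0.21; without the pair, 1 rose and 0 fell (median 0.45). Its summed CPM was 113 to 164 in the controls and 126 to 244 in the treated mice. The part of other cell types in the Fabp4 rise was not tested.

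For lipid droplet and triglyceride genes, 9 of 25 tested members rose and 3 fell, with a median log2 change of 0.99, and without the pair 6 rose and 0 fell (median 0.95). Plin2, the main coat protein of hepatic lipid droplets, rose from 845, 526, 1332 and 1072 CPM to 4649.7, 4054, 5189.9, 3579 and 7727 CPM (log2 change 2.42, SE 0.27, adjusted p = 9.66e-07). Mgll, which releases the last fatty acid of a glyceride, rose from 84.4 to 123 CPM to 144 to 446 CPM (log2 change 1.53, SE 0.23, adjusted p = 4.45e-05). Cidec, a protein that fuses droplets, had no count in any control and 36.4, 24.5, 23.6, 4.26 and 28.6 CPM in the treated mice (adjusted p = 1.48e-05), at least 164-fold above the limit of 3 counts over the 4 controls. The 3 that fell, Cideb, Dgat2 and Lpin1, did so with all 9 libraries, and none fell without the pair.

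For fatty acid synthesis, 8 of 18 tested members rose and 2 fell, with a median log2 change of 0.76, and without the pair 6 rose and 0 fell (median 0.53). Scd1, the stearoyl-CoA desaturase of liver, stood at 164, 238, 119 and 154 CPM in the controls and 836, 1180.3, 765, 816 and 1289.7 CPM in the treated mice (log2 change 2.53, SE 0.3, adjusted p = 3.97e-06). Scd2, a desaturase that adult liver makes little of, went from 3.52, 6.53, 13.8 and 5.84 CPM to 72.1, 96.1, 61.5, 130.2 and 301 CPM and was highest in replicates 4 and 5 (log2 change 4.14, SE 0.48, adjusted p = 3.97e-06). Elovl5, which lengthens polyunsaturated fatty acids, rose by 1.45 (adjusted p = 7.56e-05). Cholesterol synthesis showed little: 2 of 23 tested members rose and 0 fell, with a median log2 change of 0.4, and without the pair 0 rose and 0 fell (median 0.01). Both Fdps (log2 change 1.19, SE 0.36, adjusted p = 0.0323) and Fdft1 (log2 change 0.74, SE 0.22, adjusted p = 0.0263) make sterol precursors, and neither passed without replicates 4 and 5 (adjusted p = 0.318 and 0.0629). Fdps was 1469.8 CPM in replicate 5 and 345 to 624 CPM in the others.

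Among lipoprotein genes 2 of 23 tested members rose and 4 fell, with a median log2 change of -0.31, and without the pair 1 rose and 2 fell (median -0.15). Pltp, which transfers phospholipids between lipoproteins, rose from 0.365 to 3.67 CPM to 5.82 to 29.1 CPM (adjusted p = 0.0046). Apon, an apolipoprotein, fell by 1.07 on the log2 scale (adjusted p = 0.00131). Apoc3, an inhibitor of triglyceride clearance, fell by 1.06 (adjusted p = 0.00971) and lost its call without replicates 4 and 5 (adjusted p = 0.0589).

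Of the tricarboxylic acid cycle and uncoupling genes 5 of 18 tested members rose and 0 fell, with a median log2 change of 0.15, and without the pair 5 rose and 0 fell (median 0.29). Ucp2, an uncoupling protein of many tissues, rose from 38.5, 23.1, 26.2 and 27.4 CPM to 241, 202, 205, 261 and 399 CPM (log2 change 3.18, SE 0.48, adjusted p = 0.000139). Ucp3, its relative in skeletal muscle, had 2 counts in the 4 controls together and read 17.4, 16.4, 19.3, 5.88 and 18.4 CPM in the treated mice, a ratio of 159.7 (95% counting interval 44 to 1322). Idh2, a mitochondrial isocitrate dehydrogenase, rose by 0.78 (adjusted p = 0.00206). Pdk4, which blocks the entry of pyruvate into the citric acid cycle, rose from 0, 1.84, 0 and 2.74 CPM to 29.4, 23.2, 17.7, 18.9 and 67.5 CPM (log2 change 4.75, SE 0.8, adjusted p = 0.000204). Fgf21, a hormone that liver releases in fasting, rose from 1.96, 0, 0.553 and 2.37 CPM to 20.1, 18.4, 16.1, 57.3 and 38.2 CPM (log2 change 4.59, SE 0.72, adjusted p = 8.49e-05). It was highest in replicates 4 and 5.

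Of the receptor genes, Ppara read 132, 201, 128 and 91.5 CPM in the controls and 188, 138, 166, 134 and 79 CPM in the treated mice and did not pass the test (log2 change 0.03, SE 0.31, adjusted p = 0.971); its sign changed when single libraries were left out. Rxra, its partner, fell by 0.54 (adjusted p = 0.0329), a call that was lost without replicates 4 and 5 (adjusted p = 0.243). Pparg, the relative that drives fat storage, rose from 2.93, 2.25, 0.368 and 1.1 CPM to 10.3, 11, 22, 13.2 and 16.5 CPM (log2 change 3.13, SE 0.51, adjusted p = 0.000118).

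Since many of these genes rose together, their promoters were searched for the receptor's element, AGGTCANAGGTCA, on both strands, in the 250 bases before and 50 after each start listed by RefSeq for GRCm38.p6. Of 61 genes that rose on the lists of peroxisomal and mitochondrial fatty acid oxidation, ketone bodies, omega-oxidation, thioesterases, fatty acid uptake and activation, lipid droplets, and uncoupling and the citric acid cycle, 45 had a window. Among these, 6 (13.3%) held the element with at most 2 mismatches, as did 4.4% of all 27025 genes with a window, 3.78% of the 556 risen genes with one and 5.40% of the 556 fallen ones. Only Fabp1 of the 45 was within 1 mismatch, and across all genes 0.644% were. Ehhadh, Acot1, Acot2 and Aldh3a2 had windows without such a match, which says only that these letters are not in that stretch. The 250 bases before the start are shown for 4 of the 6 genes, chosen because their levels are described here, with the nearest match in capitals; a match is a resemblance of letters and not a measured site.
Fabp1, chr6:71199629-71199878, plus strand, 1 mismatch, from 67 to 55 bases before the start: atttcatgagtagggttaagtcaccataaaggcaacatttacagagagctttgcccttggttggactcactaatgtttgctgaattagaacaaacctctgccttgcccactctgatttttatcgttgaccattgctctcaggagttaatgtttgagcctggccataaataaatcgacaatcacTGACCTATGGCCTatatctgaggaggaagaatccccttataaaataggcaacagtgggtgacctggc
Cd36, chr5:17835897-17836146, minus strand, 2 mismatches, from 63 to 51 bases before the start: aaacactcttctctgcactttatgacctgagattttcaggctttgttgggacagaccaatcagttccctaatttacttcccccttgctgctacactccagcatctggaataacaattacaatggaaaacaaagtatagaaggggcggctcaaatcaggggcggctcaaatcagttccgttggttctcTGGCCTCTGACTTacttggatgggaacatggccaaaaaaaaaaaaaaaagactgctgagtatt
Plin2, chr4:86670060-86670309, minus strand, 2 mismatches, from 225 to 213 bases before the start: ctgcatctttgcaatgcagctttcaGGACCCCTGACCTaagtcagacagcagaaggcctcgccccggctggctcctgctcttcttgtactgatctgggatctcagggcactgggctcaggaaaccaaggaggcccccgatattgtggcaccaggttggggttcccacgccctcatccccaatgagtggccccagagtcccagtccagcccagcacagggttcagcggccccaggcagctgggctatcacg
Ucp3, chr7:100472741-100472990, plus strand, 2 mismatches, from 51 to 39 bases before the start: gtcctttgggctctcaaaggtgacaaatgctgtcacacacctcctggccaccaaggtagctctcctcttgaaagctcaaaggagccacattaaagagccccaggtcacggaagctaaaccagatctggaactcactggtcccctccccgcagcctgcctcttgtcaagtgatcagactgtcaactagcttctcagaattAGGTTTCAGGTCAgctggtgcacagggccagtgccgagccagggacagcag
In Fabp1, Cd36 and Plin2 the element reads on the strand opposite to the gene, and in Ucp3 on the gene's own strand. Mogat1 and Slc25a20 were the other 2 genes.

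A set of genes went from near silence to clear detection. Of the genes that rose, 101 had a mean under 5 raw counts per library in the controls, and 31 had no count in any of the 4 controls. A gene near 0 in the controls could enter the test only through groups where it was higher, so these counts lean toward rises. The share of all tested genes that were this low in the controls was not counted. The 6 with the highest treated means are described here. Fabp3, the fatty acid binding protein of heart and muscle, had no control count and read 59.7, 32.1, 21.7, 1.0 and 130.4 CPM in the treated mice (adjusted p = 0.000165), at least 342-fold above the control limit. Cox6b2, a cytochrome oxidase subunit known from testis, read 43.7, 23.6, 45.6, 4.51 and 22.3 CPM (adjusted p = 2.82e-07), at least 195-fold above that limit. In replicate 4 both were far lower than in the other 4 treated mice.

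Fbp2, the muscle form of fructose bisphosphatase, went from 0, 1.0, 0 and 0.183 CPM to 26.1, 36.1, 37.8, 7.01 and 88 CPM (log2 change 6.96, SE 1.11, adjusted p = 0.000182). Aqp3, a channel for water and glycerol, went from 0.587, 0, 0 and 0.913 CPM to 59.8, 18.8, 32.1, 6.26 and 76.8 CPM (log2 change 6.59, SE 1.06, adjusted p = 0.00021). Sptlc3, a subunit of the enzyme that begins sphingolipid synthesis, had 1 count in the controls and 49.3, 24.4, 16.8, 5.88 and 48.2 CPM in the treated mice, a ratio of 578 (95% counting interval 104 to 22865). Cxcr1, a chemokine receptor, likewise had 1 control count and read 7.62, 44.7, 59.6, 4.13 and 36.6 CPM, a ratio of 628 (95% counting interval 112 to 24806). Replicate 4 was again the lowest of the treated mice for all 4. At 0.5 mg/kg, Cox6b2 (5.85 ± 2.85 CPM, SD, n = 5, adjusted p = 0.000154) and Sptlc3 (5.38 ± 5.54 CPM, adjusted p = 0.00565) had already risen, whereas Fabp3 stood at 0.61 ± 0.82 CPM.

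Of the genes that fell, 23 had a mean under 5 raw counts per library at 5 mg/kg. The share of all tested genes this low at 5 mg/kg was not counted either. That limit is not scaled for depth. Treated libraries held 5028161 to 7717469 counts against 4929678 to 5577049 in the controls, so it was harder to fall under it in the treated group. Irx1, a homeobox transcription factor, stood at 9.0, 8.57, 9.4 and 8.04 CPM in the controls and 0, 0, 0.248, 0 and 0 CPM in the treated mice, a control-to-treated ratio of 160.1 (95% counting interval 43.7 to 1332). Slc22a7, a transporter of organic anions, fell from 23.7, 8.98, 4.42 and 3.1 CPM to 0.129, 0, 0.371, 0.876 and 0.35 CPM (log2 change -4.76, SE 0.74, adjusted p = 6.21e-05). Sult5a1, a sulfotransferase, fell from 2.35 to 12.3 CPM to 0 to 0.775 CPM, and Cabyr, a calcium-binding protein known from sperm, from 5.28 to 8.95 CPM to 0 to 1.25 CPM (adjusted p = 0.0031 and 0.00389). Capn8, a calpain protease, and Zfp982, a zinc finger protein, fell too (adjusted p = 0.00769 and 0.0148), but neither passed without replicates 4 and 5 (adjusted p = 0.0517 and 0.0958), and control replicate 1 of Capn8 lay within the treated range.

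**Figure D2:**
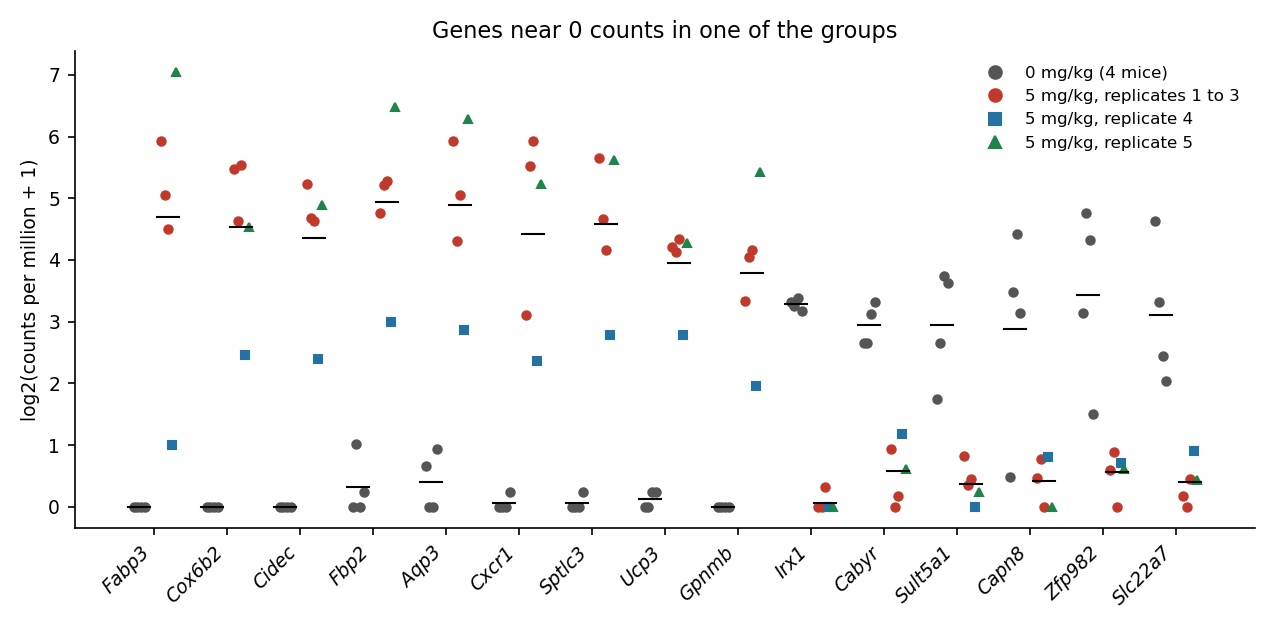
log2(CPM + 1) in each mouse for 15 genes near 0 counts in one of the groups, with controls in grey, treated mice in colour and short lines for the mean of the plotted values. For the 9 genes on the left the controls lie at or near 0, and replicate 4, the square, is the lowest treated mouse for all of them.

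Of the 12 largest rises among genes with a mean of at least 5 counts in the controls, 9 are fat-handling genes or Pdk4 described above, and 3 are not. Ly6d, a small surface protein, went from 1.37, 0, 2.4 and 0.913 CPM to 98.7, 42.9, 41.6, 73.9 and 388 CPM (log2 change 6.74, SE 1.33, adjusted p = 0.00194), with replicate 5 far above the rest. Esm1, a proteoglycan secreted by endothelial cells, went from 0.782, 4.08, 0.368 and 1.1 CPM to 24.7, 15.3, 18.8, 179.5 and 113 CPM and was highest in replicates 4 and 5 (log2 change 5.48, SE 0.93, adjusted p = 0.00042). Gm49366, a predicted gene, went from 0 to 4.69 CPM to 26 to 65.8 CPM (log2 change 4.99, SE 0.78, adjusted p = 0.000164). All treated mice exceeded all controls for these 3 genes.

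Among the largest falls was Hsd3b2, a steroid dehydrogenase, at 399, 353, 261 and 445 CPM in the controls and 20.1, 33.1, 14.2, 4.13 and 6.48 CPM in the treated mice (log2 change -4.54, SE 0.48, adjusted p = 2.81e-06). Gm10681 and Serpina4-ps1, both transcribed loci without a settled product, fell from 281 to 426 CPM to 2.25 to 9.48 CPM (log2 change -6.12, SE 0.42, adjusted p = 5.74e-09) and from 61.4 to 852 CPM to 0.849 to 4.83 CPM (log2 change -7.15, SE 1.6, adjusted p = 0.00536); the second was not called without the pair (adjusted p = 0.0576). Noct, a rhythmic phosphatase also called nocturnin, Lama3, a laminin chain, and Serpine2, a protease inhibitor, fell as well (log2 change -3.86, -3.76 and -4.17, adjusted p = 3.1e-05, 5.23e-05 and 0.00049). Slc22a28, of the organic anion transporter family, fell from 34.2, 54.5, 53.8 and 46.9 CPM to 2.45, 4.81, 3.1, 0.125 and 0.175 CPM (log2 change -4.44, SE 0.51, adjusted p = 3.65e-06). The falls of Arf1 and Ren1 rested on few libraries. Arf1, a GTPase, read 440 CPM in control replicate 3 and at most 4.39 CPM in the other 8 libraries, and its log2 change was 0.16 without that library (adjusted p = 0.972). It was not called without the pair either (adjusted p = 0.198). Ren1, the renin gene, stood at 161, 49.4, 1.84 and 1.64 CPM in the controls, overlapped between groups, and was not called without the pair (adjusted p = 0.223) or without any of 6 single libraries, among them control replicates 1 and 2.

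Many genes of nitrogen metabolism fell. For amino acid breakdown, 0 of 35 tested members rose and 19 fell, with a median log2 change of -0.95, and without the pair 0 rose and 15 fell (median -0.68). For the urea cycle, which turns ammonia into urea, 0 of 8 tested members rose and 5 fell, with a median log2 change of -1.143; without the pair, 0 rose and 5 fell (median -0.96). For methionine and one-carbon metabolism, 0 of 16 tested members rose and 11 fell, with a median log2 change of -1.024; without the pair, 0 rose and 9 fell (median -0.74). No tested member of the 3 lists rose in either fit.

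Ass1, which makes argininosuccinate, stood at 5721, 7008, 3983 and 4517 CPM in the controls and 1513, 2117, 1527, 1099 and 358 CPM in the treated mice (log2 change -2.0, SE 0.3, adjusted p = 4.38e-05). Asl, which cleaves it, went from 652, 834, 473 and 692 CPM to 221, 238, 207, 135 and 94.5 CPM (log2 change -1.89, SE 0.22, adjusted p = 1.51e-06). Slc25a15, the mitochondrial ornithine carrier, went from 218, 202, 195 and 203 CPM to 77, 116, 81.6, 61.4 and 48.9 CPM (log2 change -1.41, SE 0.18, adjusted p = 3.65e-06). The groups were apart for all 3, and replicate 5 was the lowest. Prodh, which opens proline breakdown, fell from 380 to 641 CPM to 26.5 to 143 CPM (log2 change -2.46, SE 0.32, adjusted p = 1.62e-05), and Hal, the first enzyme of histidine breakdown, from 434 to 912 CPM to 45 to 257 CPM (log2 change -1.97, SE 0.3, adjusted p = 8.34e-05). Oat, an ornithine aminotransferase of pericentral hepatocytes, fell from 288, 608, 197 and 188 CPM to 50.9, 75.5, 47.3, 12.9 and 38.4 CPM (log2 change -2.83, SE 0.44, adjusted p = 0.000191).

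Gnmt, which uses up methyl groups from S-adenosylmethionine, fell from 3977, 5821, 5556 and 7011 CPM to 1120.4, 1348, 1096, 378 and 282 CPM (log2 change -2.73, SE 0.33, adjusted p = 3.65e-06). Bhmt, which remakes methionine from homocysteine, fell from 2022, 1302, 2424 and 2770.2 CPM to 688, 401, 262, 329.6 and 164 CPM (log2 change -2.53, SE 0.32, adjusted p = 8.69e-06), and Aldh1l1, a folate enzyme, fell too (log2 change -1.9, adjusted p = 1.21e-06). Every treated mouse was below every control for the 3 genes, with replicates 4 and 5 the lowest for Gnmt and Aldh1l1.

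For glucose genes, 1 of 23 tested members rose and 7 fell, with a median log2 change of -0.6, and without the pair 1 rose and 6 fell (median -0.42). Pdk4 was the one that rose. Khk, which traps fructose, fell from 260.2, 228, 236 and 255 CPM to 115, 97.5, 124, 59.3 and 65.9 CPM (log2 change -1.41, SE 0.18, adjusted p = 4.12e-06), and Pklr, the pyruvate kinase of liver, from 55.9, 29.2, 29.1 and 26.7 CPM to 9.04, 11.5, 11.4, 10.3 and 15.1 CPM (log2 change -1.62, SE 0.26, adjusted p = 0.000111).

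For bile acid synthesis, 0 of 13 tested members rose and 6 fell, with a median log2 change of -1.22, and without the pair 0 rose and 6 fell (median -1.0). Cyp2c70, which makes the muricholic acids of rodents, stood at 1319, 1218, 1375 and 1794 CPM in the controls and 259, 418, 203, 383 and 127 CPM in the treated mice (log2 change -2.36, SE 0.29, adjusted p = 5.48e-06). Akr1d1, a steroid reductase of the pathway, fell by 1.37 and Baat, which joins bile acids to taurine, by 1.45 (adjusted p = 0.000156 and 1.62e-05). Cyp27a1, of the alternative pathway, fell by 1.22 (adjusted p = 0.00551). Cyp7a1, the rate-limiting enzyme of the main pathway, is named after its values were seen: it read 428, 272, 134 and 242 CPM and 78.1, 171, 72.8, 24.2 and 127 CPM and did not pass (log2 change -1.51, SE 0.5, adjusted p = 0.0508).

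For bile acid transport, 1 of 13 tested members rose and 4 fell, with a median log2 change of -0.86, and without the pair 1 rose and 2 fell (median -0.43). Abcb11, the export pump for bile salts, fell from 456, 303, 423 and 529.5 CPM to 276, 269.7, 276, 209 and 143 CPM (log2 change -0.87, SE 0.2, adjusted p = 0.0041), with an adjusted p of 0.0553 without replicates 4 and 5. Abcb1a, a multidrug pump, rose from 3.52, 5.1, 6.26 and 2.01 CPM to 29.3, 20.7, 20.8, 31.3 and 23.8 CPM (log2 change 2.57, SE 0.61, adjusted p = 0.00581).

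Adult males normally express a set of liver genes that growth hormone pulses keep high. Of these male-biased genes 0 of 21 tested members rose and 13 fell, with a median log2 change of -1.73, and without the pair 0 rose and 8 fell (median -1.41). Cyp7b1, an oxysterol hydroxylase, fell from 107, 137, 64.3 and 140.4 CPM to 5.81, 25.2, 8.17, 2.5 and 7.71 CPM (log2 change -3.51, SE 0.56, adjusted p = 0.000247), Mup21, a urinary protein, from 59.5, 42.2, 24 and 28.9 CPM to 1.55, 7.36, 3.71, 0.376 and 1.23 CPM (log2 change -3.75, SE 0.63, adjusted p = 0.000349), and Gstp1, a glutathione transferase, from 4127, 6617, 8357 and 9689.5 CPM to 1090.3, 2685, 2289, 1127 and 2528 CPM (log2 change -1.89, SE 0.31, adjusted p = 0.000104). Treated replicate 2 kept the highest level of all 3. Elovl3, which lengthens fatty acids, fell from 168, 158, 1734 and 962 CPM to 97.8, 69, 45.2, 5.88 and 99.7 CPM (log2 change -3.58, SE 0.91, adjusted p = 0.0122), with adjusted p = 0.0585 without the pair and 0.0554 without control replicate 3.

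For female-biased genes, 5 of 21 tested members rose and 2 fell, with a median log2 change of 0.09, and without the pair 4 rose and 0 fell (median 0.2). Cyp2b9, a cytochrome P450 of female liver, went from 4.5, 3.67, 0.553 and 2.56 CPM to 109.9, 63.3, 51.8, 49 and 23.3 CPM (log2 change 4.4, SE 0.73, adjusted p = 0.000305), and Cyp2a22 from 0.587, 0.204, 0.368 and 0 CPM to 24.8, 8.49, 20.3, 12.3 and 8.76 CPM (log2 change 5.59, SE 0.89, adjusted p = 9.33e-05). Rtn4, a protein of the endoplasmic reticulum, rose by 3.43 (adjusted p = 0.00021). Of the growth hormone and IGF genes 0 of 16 tested members rose and 3 fell, with a median log2 change of -0.76, and without the pair 0 rose and 1 fell (median -0.49). Ghr, the growth hormone receptor, fell from 203, 196, 207 and 174 CPM to 102, 125, 77, 67.9 and 83.2 CPM (log2 change -1.1, SE 0.15, adjusted p = 1.72e-05). Igf1 and Igfbp4, a growth factor and its binding protein, fell by 0.86 and 0.70 (adjusted p = 0.0184 and 0.0186) but were not called without the pair (adjusted p = 0.194 and 0.0961).

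For the Cyp2c family, which oxidises drugs and fatty acids, 0 of 12 tested members rose and 6 fell, with a median log2 change of -1.92; without the pair, 2 rose and 6 fell (median -1.8). Cyp2c54 stood at 1635, 2489.5, 1849.5 and 2735 CPM in the controls and 123, 287, 70.6, 29.6 and 48.5 CPM in the treated mice (log2 change -4.29, SE 0.5, adjusted p = 5.94e-06). Cyp2c50 went from 9.39, 27.3, 22.7 and 22.6 CPM to 0.646, 3.54, 0.991, 0.125 and 0.876 CPM (log2 change -4.04, SE 0.51, adjusted p = 3.65e-06). These genes are close relatives, and whether their probes read each other's RNA was not tested. For targets of CAR, PXR and the Ah receptor, which sense foreign chemicals, 0 of 22 tested members rose and 6 fell, with a median log2 change of -0.5, and without the pair 0 rose and 2 fell (median -0.28). Cyp2c29 fell from 1171, 1926, 1639 and 1603 CPM to 277, 376, 372, 21.4 and 166 CPM (log2 change -2.71, SE 0.45, adjusted p = 0.000344). Cyp2b10, the classic CAR target, fell by 2.15, Cyp1a2, an Ah receptor target, by 1.73 and Ces2a, a carboxylesterase, by 1.42 (adjusted p = 0.00715, 0.0319 and 0.0218). None of these 3 was called without the pair (adjusted p = 0.0594, 0.0782 and 0.182), and Cyp1a2 in replicate 4 was 3.38 CPM. Cyp3a11, the PXR target, did not pass (log2 change -0.79, SE 0.27, adjusted p = 0.0565).

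**Figure D3:**
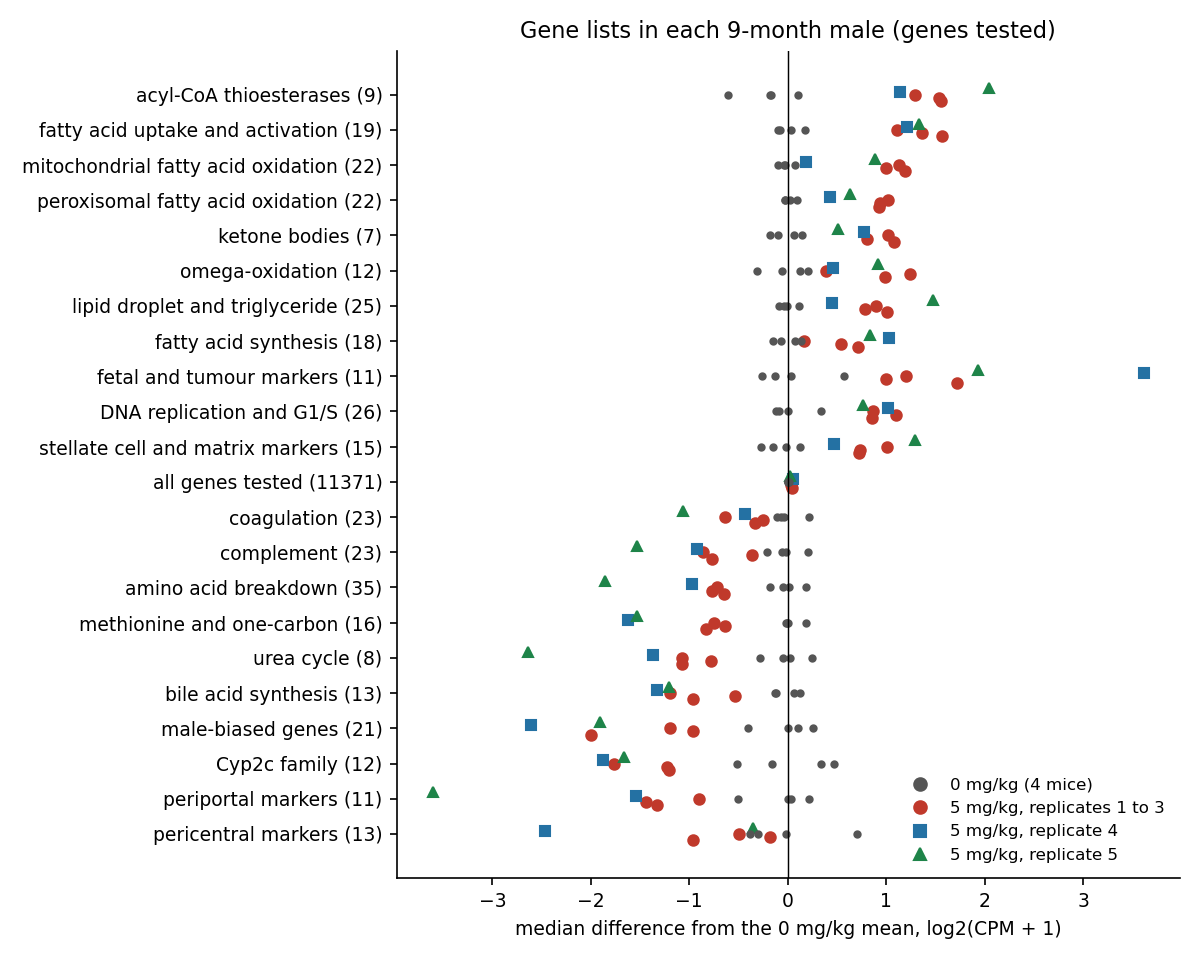
Median over the tested genes of each list of the difference in log2(CPM + 1) between 1 mouse and the control mean, with treated mice in colour and each control, in small grey points, set against the mean of the other 3 controls; the number of tested genes is in brackets. The 8 fatty acid and lipid lists at the top, from thioesterases to fatty acid synthesis, lie to the right of 0 and nitrogen, complement and male-biased lists to the left in all 5 treated mice, and replicate 4 is far to the left for pericentral markers and replicate 5 for periportal markers.

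RNA of some genes for proteins that the liver secretes into plasma was also lower. For complement, 0 of 23 tested members rose and 12 fell, with a median log2 change of -0.82, and without the pair 0 rose and 9 fell (median -0.66). Hc, which encodes complement component C5, fell from 615, 669.5, 832 and 698 CPM to 214, 317, 172, 166 and 288 CPM (log2 change -1.6, SE 0.21, adjusted p = 5.93e-06). C9 and C8g, parts of the membrane attack complex, fell (log2 change -2.67 and -1.23, adjusted p = 0.000104 and 3.97e-05). For coagulation, 1 of 23 tested members rose and 5 fell, with a median log2 change of -0.49, and without the pair 0 rose and 2 fell (median -0.42). F11 and F7, clotting factor genes, fell by 1.83 and 1.19 (adjusted p = 9.11e-05 and 0.000532), and Vtn, vitronectin, by 0.78 (adjusted p = 0.00629, and 0.0699 without the pair).

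For acute phase genes, 0 of 24 tested members rose and 6 fell, with a median log2 change of -0.81, and without the pair 0 rose and 4 fell (median -0.58). Itih4, Serpina3n and Crp, all secreted plasma proteins, fell by 1.24, 1.37 and 1.04 (adjusted p = 0.000349, 0.000326 and 0.00209). Of the hormones that liver secretes, Fgf21 was the 1 that rose and 3 of 22 tested fell, among them Fetub, a fetuin (log2 change -0.88, adjusted p = 0.0263, and 0.121 without the pair). Without the pair, 1 rose and 1 fell (median -0.38) on this list.

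For hepatocyte markers, 0 of 10 tested members rose and 3 fell, with a median log2 change of -0.43, and without the pair 0 rose and 3 fell (median -0.34). Alb, albumin, read 2102, 2139.8, 1798 and 2049.5 CPM in the controls and 1857, 1597, 1863, 3775 and 1519.8 CPM in the treated mice and did not pass (log2 change 0.07, SE 0.26, adjusted p = 0.915); replicate 4 was the highest of the 9 mice, and without it the log2 change was -0.24. Serpina1a, an antitrypsin gene, fell from 501, 757, 332 and 524 CPM to 125, 131, 124, 219 and 41.2 CPM (log2 change -2.04, SE 0.36, adjusted p = 0.000583), Ttr, transthyretin, by 0.76 (adjusted p = 0.00455) and Hnf4a, the transcription factor that maintains the hepatocyte programme, from 705, 706, 751 and 611 CPM to 373, 466, 409.6, 378 and 395 CPM (log2 change -0.78, SE 0.17, adjusted p = 0.00247). For hepatocyte regulators, 1 of 33 tested members rose and 6 fell, with a median log2 change of -0.29, and without the pair 2 rose and 2 fell (median -0.13). In bulk sections fewer cells of a type and less RNA per cell cannot be told apart.

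Some markers of the zones of the liver lobule fell as well. For periportal markers, 0 of 11 tested members rose and 5 fell, with a median log2 change of -1.53, and without the pair 1 rose and 5 fell (median -1.34); Ass1, Asl and Hal are on this list as well as on the nitrogen lists. For pericentral markers, 0 of 13 tested members rose and 4 fell, with a median log2 change of -0.77, and without the pair 0 rose and 3 fell (median -0.74). Slc1a2, a glutamate transporter of pericentral hepatocytes, fell from 178, 406, 114 and 168 CPM to 24, 34.1, 54, 3.25 and 3.33 CPM (log2 change -3.18, SE 0.61, adjusted p = 0.00151), with replicates 4 and 5 the lowest.

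For genes of the G1 phase and DNA replication, 10 of 26 tested members rose and 1 fell, with a median log2 change of 0.94; without the pair, 8 rose and 1 fell (median 1.01). Ccnd1, the cyclin that drives entry into the cycle, stood at 4.5, 1.22, 1.84 and 1.64 CPM in the controls and 50.6, 25.5, 59.9, 49.2 and 25.8 CPM in the treated mice (log2 change 4.19, SE 0.57, adjusted p = 1.62e-05). Mcm6, a subunit of the replicative helicase, rose from 4.89, 7.75, 5.71 and 2.19 CPM to 41.1, 102, 39.1, 35.6 and 41 CPM (log2 change 3.33, SE 0.59, adjusted p = 0.000452). Tk1, a thymidine kinase, went the other way, from 87.4, 180, 52.9 and 68.5 CPM to 26.1, 29.3, 19.9, 24.2 and 3.5 CPM (log2 change -2.23, SE 0.47, adjusted p = 0.00323). The groups were separate for each with probes summed. Taken singly, probe 1 of Tk1 fell (log2 change -2.4, adjusted p = 0.00376) and probe 2 did not pass (log2 change -0.55, adjusted p = 0.589). For Mcm6, probe 1 on its own did not pass (log2 change 2.05, adjusted p = 0.197) and probe 2 did (log2 change 3.63, adjusted p = 0.000198).

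The mitotic genes were near the detection limit: 3 of 16 tested members rose and 0 fell, with a median log2 change of 2.7, and without the pair 1 rose and 0 fell (median 2.7). Of 20 genes listed, only these 16 had enough counts to be tested. Those near 0 in the controls could enter only through groups where they were higher, so the median leans toward rises. Kif20a, a mitotic kinesin, rose from 5.28, 1.63, 1.47 and 3.1 CPM to 15.5, 7.22, 35.4, 11.9 and 13.7 CPM (log2 change 2.54, SE 0.57, adjusted p = 0.00328). Ccna2, a cyclin, and Cenpf, a kinetochore protein, passed with all libraries (adjusted p = 0.0482 and 0.044) but not without the pair (adjusted p = 0.186 and 0.132) or without most single libraries. Mki67, the usual proliferation marker, read 0.391, 3.88, 0.368 and 0 CPM and 0.129, 0.708, 1.98, 1.0 and 1.75 CPM and did not pass (log2 change -0.05, SE 1.35, adjusted p = 0.989), and its sign changed with the libraries used.

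For early growth genes, 3 of 17 tested members rose and 2 fell, with a median log2 change of 0.23, and without the pair 1 rose and 2 fell (median 0.12). Jun, a subunit of AP-1, rose by 1.73 (adjusted p = 0.00645). The growth factor receptors Egfr and Fgfr4 fell by 1.72 and 1.55 (adjusted p = 0.0046 and 0.00014), and Egfr was not called without the pair (adjusted p = 0.0707). For damage-response genes, 4 of 17 tested members rose and 0 fell, with a median log2 change of 0.6, and without the pair 1 rose and 0 fell (median 0.36). Gadd45b, a stress-induced growth regulator, rose from 1.76, 3.88, 10.9 and 11.5 CPM to 111, 127, 53, 25.8 and 56.1 CPM (log2 change 3.4, SE 0.58, adjusted p = 0.000384). Gadd45a and Ccng1 rose by 1.9 and 0.75 (adjusted p = 0.00873 and 0.014), and neither was called without the pair (adjusted p = 0.0982 and 0.0562).

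For fetal and tumour marker genes, 8 of 11 tested members rose and 0 fell, with a median log2 change of 3.2, and without the pair 4 rose and 0 fell (median 1.61). Their median difference from the control mean was 1.72, 1.0, 1.2, 3.62 and 1.93 log2 units in replicates 1 to 5. Of 21 genes listed, 18 had a probe and only 11 had enough counts to be tested. A gene near 0 in the controls could enter the test only through groups where it was higher. The share that rose and the median therefore lean toward rises. Akr1c18, a steroid dehydrogenase, read 0, 0, 0 and 0.731 CPM in the controls and 5.68, 5.1, 6.19, 75.7 and 1.93 CPM in the treated mice (log2 change 6.5, SE 1.49, adjusted p = 0.0050, and adjusted p = 0.052 without the pair). Afp, alpha-fetoprotein, did not pass (log2 change 1.82, SE 1.37, adjusted p = 0.464): replicate 4 stood at 155 CPM and the other 4 treated mice at 1.24 to 8.14 CPM, below the highest control at 18.4 CPM. Prom1, a membrane protein of progenitor and bile duct cells, was 32.8 CPM in replicate 4 and at most 8.41 CPM elsewhere (log2 change 3.2, SE 0.91, adjusted p = 0.0188, and adjusted p = 0.468 without the pair).

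For matrix and stellate cell genes, 6 of 15 tested members rose and 0 fell, with a median log2 change of 1.4, and without the pair 4 rose and 0 fell (median 0.97). Col4a1 and Col4a2, basement membrane collagens, rose from 26, 17.6, 23 and 44.7 CPM to 121, 87.5, 116, 260.5 and 383 CPM (log2 change 2.79, SE 0.41, adjusted p = 8.4e-05) and by 2.27 (adjusted p = 1.76e-05). Col1a1, a fibrillar collagen, rose from 7.24, 6.53, 15.5 and 4.57 CPM to 57.4, 30.4, 32.3, 44.7 and 204 CPM (log2 change 3.12, SE 0.75, adjusted p = 0.00818) and was highest in replicate 5, with adjusted p = 0.053 without the pair. The summed CPM of the 16 markers was 197 to 247 in the controls and 408 to 985 in the treated mice, without overlap.

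Among macrophage genes, Gpnmb, known from lipid-laden macrophages, had no count in the controls and 9.04, 15.6, 17, 2.88 and 41.9 CPM in the treated mice (adjusted p = 0.000349), at least 120.5-fold above the control limit. Mmp12, a macrophage elastase, had 3 control counts, a ratio of 27.4 (95% counting interval 9.2 to 135), and was not called without the pair (adjusted p = 0.0699). Of the endothelial markers Egfl7 alone rose (log2 change 0.82, SE 0.21, adjusted p = 0.0107, and adjusted p = 0.299 without the pair). Krt23, a keratin on the bile duct list, rose from 0.978, 0, 0 and 2.01 CPM to 23.5, 13.3, 24, 27 and 10.7 CPM (log2 change 4.67, SE 1.24, adjusted p = 0.0146), while Epcam, Sox9 and Cldn4 stayed under 1 CPM in all 9 mice. None of the tested T and NK cell, B and plasma cell, neutrophil or red cell markers passed the test with all 9 libraries. Without the pair 1 of them did, named here after its values were seen: Xbp1, a transcription factor of secretory cells that is also made by hepatocytes, fell (log2 change -0.7, adjusted p = 0.00917). Cela1, a pancreatic elastase gene, read 0.782, 2.04, 0.737 and 0 CPM in the controls and 4.65, 4.53, 1.61, 52.3 and 65.5 CPM in the treated mice (log2 change 4.84, SE 1.138, adjusted p = 0.00621). The signal came from replicates 4 and 5, without which it was not called (adjusted p = 0.344), and 11 other acinar markers stayed under 1 CPM in all 9 mice.

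For retinoid genes, 4 of 12 tested members rose and 0 fell, with a median log2 change of 0.14, and without the pair 3 rose and 0 fell (median 0.22). Retsat, which saturates retinol, rose from 124, 143, 199 and 164 CPM to 1372, 1919.9, 895, 414 and 755 CPM (log2 change 2.76, SE 0.41, adjusted p = 0.000104). Adh1, an alcohol and retinol dehydrogenase, rose by 1.05 (adjusted p = 0.000786).

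For genes of the NRF2 response to oxidants, 4 of 21 tested members rose and 3 fell, with a median log2 change of 0.01, and without the pair 2 rose and 2 fell (median 0.03). Gpx4, which repairs lipid peroxides, rose by 0.78 and Gsta4, which clears their aldehyde products, fell by 1.46 (adjusted p = 0.000807 and 0.000245). For the endoplasmic reticulum and integrated stress genes, 1 of 19 tested members rose and 2 fell, with a median log2 change of -0.16, and without the pair 0 rose and 1 fell (median -0.31). Atf3, Herpud1 and Sdf2l1, which respond to such stress, were the 3 (log2 change 3.11, -1.021 and -1.77, adjusted p = 0.0481, 0.0361 and 0.0365), and none was called without the pair (adjusted p = 0.459, 0.127 and 0.134). Atf3 stood at 69.4 CPM in replicate 5 and at most 8.67 CPM in the others.

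The males given 0.05, 0.1 and 0.5 mg/kg for 9 months, 5 per dose, place these levels on a dose scale. At 0.5 mg/kg 72 genes differed from the same 4 controls (0.633% of the genes tested). Because both comparisons use those controls, their values are set side by side and not counted together. Ehhadh stood at 4244 ± 1536 CPM (SD, n = 5) at 0.5 mg/kg (log2 change 3.24, adjusted p = 2.84e-07) and at 15307 ± 5519.6 CPM at 5 mg/kg. Cyp4a14 stood at 282 ± 185 CPM at 0.5 mg/kg (log2 change 5.53, adjusted p = 0.000106) and 449 ± 187 CPM at 5 mg/kg, and the ranges of 96.6 to 542 CPM and 179 to 690.4 CPM overlapped. Acot1 at 0.5 mg/kg reached 256 to 524 CPM (log2 change 2.75, adjusted p = 0.000267), all below the 696 to 2482 CPM of the highest dose. Cd36 at 0.5 mg/kg was 59.8 to 132 CPM (log2 change 3.62, adjusted p = 0.000448), which overlapped the highest dose through replicate 4.

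Cyp2c70 (563 ± 179 CPM, log2 change -1.34, adjusted p = 0.0197) and Hsd3b2 (77.6 ± 24.6 CPM, log2 change -2.23, adjusted p = 0.014) had fallen at 0.5 mg/kg. Asl (517 ± 106 CPM, log2 change -0.36, adjusted p = 0.637) and Gnmt (3982 ± 852 CPM, log2 change -0.49, adjusted p = 0.676) did not pass there. The median log2 change at 0.5 mg/kg was 0.67 for mitochondrial fatty acid oxidation, -0.09 for amino acid breakdown and 0.03 for all genes tested, against 0.9, -0.95 and 0.02 at 5 mg/kg.

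**Figure D4:**
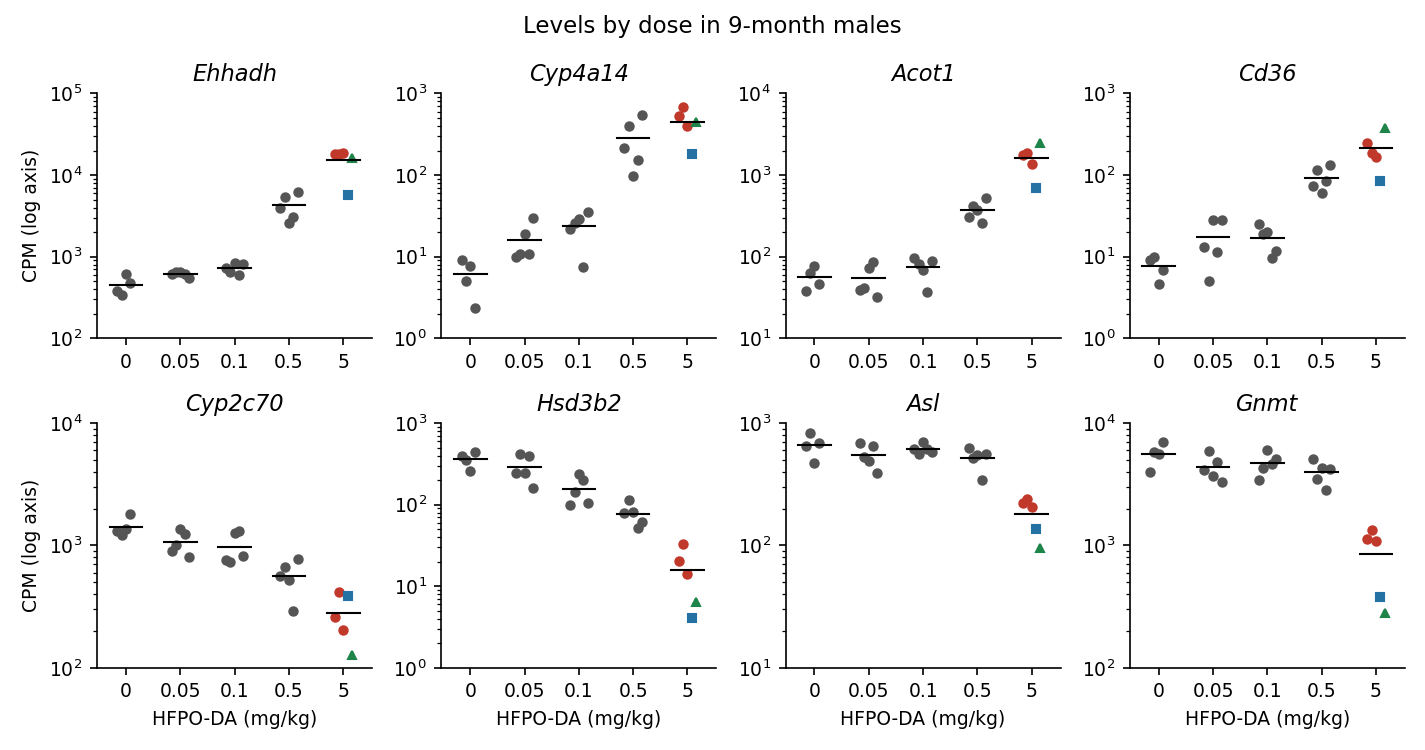
CPM on a log axis in each 9-month male by dose of HFPO-DA in mg/kg, with 4 mice at 0 and 5 at each other dose, lines for group means, and the 5 mg/kg mice in colour (replicate 4 a square, replicate 5 a triangle). Ehhadh, Cyp4a14, Acot1 and Cd36 are already higher at 0.5 mg/kg, Cyp2c70 and Hsd3b2 already lower, and Asl and Gnmt lower only at 5 mg/kg by the test.

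Whether females of the same age class responded alike was tested as the difference between the 2 log2 responses, in a model of all 92 libraries with CPM on their common scale. Of 13681 genes 35 differed (0.256%): 20 responded more positively in males and 15 more negatively. The number was 13 without replicates 4 and 5, 64 in a fit of the 4 groups alone and 477 with DESeq2 on those 4 groups. In Cd36 the difference came with unlike controls. Control males stood at 4.29 to 9.1 CPM and control females at 26.1 to 64.5 CPM, while treated males stood at 77.9 to 347 CPM and treated females at 82.7 to 245 CPM (difference 3.05, SE 0.62, adjusted p = 0.00704). Ccnd1 was at 1.137 to 4.18 CPM in control males but already at 31 to 66.1 CPM in control females, and at 23.7 to 55.8 CPM and 20.4 to 51.5 CPM in treated males and females (difference 4.41, SE 0.88, adjusted p = 0.00581).

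Fabp4 had overlapping controls in the sexes, 4.8 to 27.1 CPM in males and 8.99 to 29.2 CPM in females, and differed after treatment, at 202 to 2426 CPM and 24.5 to 62.4 CPM (difference 4.83, SE 0.99, adjusted p = 0.00748); without replicates 4 and 5 the adjusted p was 0.153. The male-biased Gstp1 fell to 1019 to 2504 CPM in treated males, which still exceeded the 562 to 1007 CPM of treated females (difference -2.29, SE 0.44, adjusted p = 0.0049). Elovl3 stood at 5.45 to 91.7 CPM in treated males, below its control males, but at 13.9 to 28.2 CPM in control females and above them, at 35.2 to 143 CPM, in treated females (difference -5.75, SE 1.15, adjusted p = 0.00581). Cyp7b1 was at most 14 CPM in females of either dose (difference -3.76, SE 0.92, adjusted p = 0.0413), and Slc22a28 at most 2.12 CPM (difference -5.32, SE 1.31, adjusted p = 0.0478). Cyp7b1 and Slc22a28 lost this call when most single libraries were left out. Hal stood at 501 to 787 CPM in control females, at 433 to 666 CPM in treated females and at 41.4 to 239 CPM in treated males (difference -1.82, SE 0.42, adjusted p = 0.022). This call of Hal was lost without replicates 4 and 5 (adjusted p = 0.190), in a fit of the 4 groups alone (adjusted p = 0.0530) and without any of 5 single libraries.

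The other genes with large sex differences were at 0 counts in 1 or more groups, so the size of their fitted difference has no firm meaning. Diaph3, a formin, Exo1, a DNA exonuclease, and Sybu, a microtubule linker, had no count in control males and passed the test of the difference (adjusted p = 0.0358, 0.0307 and 0.00886). Diaph3 stood at 15.3 CPM in treated replicate 5 and at 0.464 to 3.04 CPM in the other treated males. The treated means of Exo1 and Sybu were at least 52.5 and 38.6-fold above the control limit. F2rl3, a thrombin receptor, stood at 0.287 to 14.9 CPM in control females and had no count in treated females. It was above 1 CPM in treated males only in replicates 4 and 5 (adjusted p of the difference 0.022). It did not pass in males alone (log2 change 3.67, SE 1.61, adjusted p = 0.147). Without replicates 4 and 5 none of these 4 differences passed (adjusted p = 0.162 for Diaph3, 0.0616 for Exo1, 0.0614 for Sybu and 0.306 for F2rl3). Diaph3 also lost its call without any of 11 single libraries, Exo1 without any of 7 and F2rl3 without any of 6. The fatty acid genes Ehhadh and Acot1 gave no such call, with a value for Ehhadh of 1.19 (SE 0.55, adjusted p = 0.296) and for Acot1 of 0.83 (SE 0.87, adjusted p = 0.722).

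Males treated for 18 months were compared in the same way, 3 mice at 5 mg/kg and 5 at 0. Their libraries held 9234451 to 17638156 counts, against at most 7717469 in the 9-month males compared. Depth and the age of the mice both went with duration, and their parts cannot be told apart. Of 13681 genes 29 differed (0.212%), 2 more positive at 9 months and 27 more negative, and 5 did without replicates 4 and 5. The calls depended on single libraries of the 18-month groups. Without 18-month control replicate 5, 8 genes differed. Asl was 132 CPM in that control and 409 to 553 CPM in the other 18-month controls. Cyp7b1 was 2.13 CPM in it and 66.1 to 169 CPM in the others. Without 18-month replicate 2 at 5 mg/kg 1 gene differed. Saa1 and Saa2, serum amyloids of the acute phase, read 117672 and 73814 CPM in that mouse and at most 261 and 157 CPM in the treated 9-month males (difference -8.15, SE 1.76, adjusted p = 0.0147 for Saa1 and difference -8.28, SE 1.92, adjusted p = 0.0307 for Saa2). Serpina3n (difference -4.53, SE 0.72, adjusted p = 0.000299), Asl (difference -1.91, SE 0.47, adjusted p = 0.0484), Olig1, a transcription factor (difference -7.6, SE 1.59, adjusted p = 0.0147), and Ren1 (difference -7.43, SE 1.6, adjusted p = 0.0147) were highest in the same mouse among the treated 18-month males and lost their call without it. Without 9-month replicates 4 and 5 the calls of Saa1, Saa2, Asl, Olig1 and Ren1 were lost too (adjusted p = 0.158, 0.247, 0.374, 0.157 and 0.157). In the edgeR fit of the 4 groups alone none of Saa1, Saa2, Serpina3n, Asl, Olig1 and Ren1 was called (adjusted p = 0.553 to 0.692). Asl also lost its call with DESeq2 on the 4 groups alone (adjusted p = 0.315), without the filter on low counts (adjusted p = 0.0694) and without any of 11 single libraries. Neither Saa1 nor Saa2 passed at 9 months (log2 change -1.41, SE 0.7, adjusted p = 0.226 for Saa1 and log2 change -1.11, SE 0.8, adjusted p = 0.443 for Saa2).

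The 2 genes more positive at 9 months were highest in treated replicate 4. Pnpla5, a lipase, was at 38.75 CPM there and at most 0.322 CPM in the other 4 treated mice (adjusted p for the difference 0.0166). Rdh16f2, a retinol dehydrogenase, was at 50.01 CPM there and 2.095 to 10.04 CPM in the others (difference 3.37, SE 0.82, adjusted p = 0.0484). Without replicate 4 their adjusted p was 0.258 and 0.445. Pnpla5 also lost its call without replicate 5 of the 18-month controls (adjusted p = 0.254) and without 18-month treated replicate 2 (adjusted p = 0.617), and Rdh16f2 without any of 10 single libraries. Ehhadh gave no call, with a value of -0.42 (SE 0.58, adjusted p = 0.978). A p above the threshold does not show that the responses were equal.

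**Figure D5:**
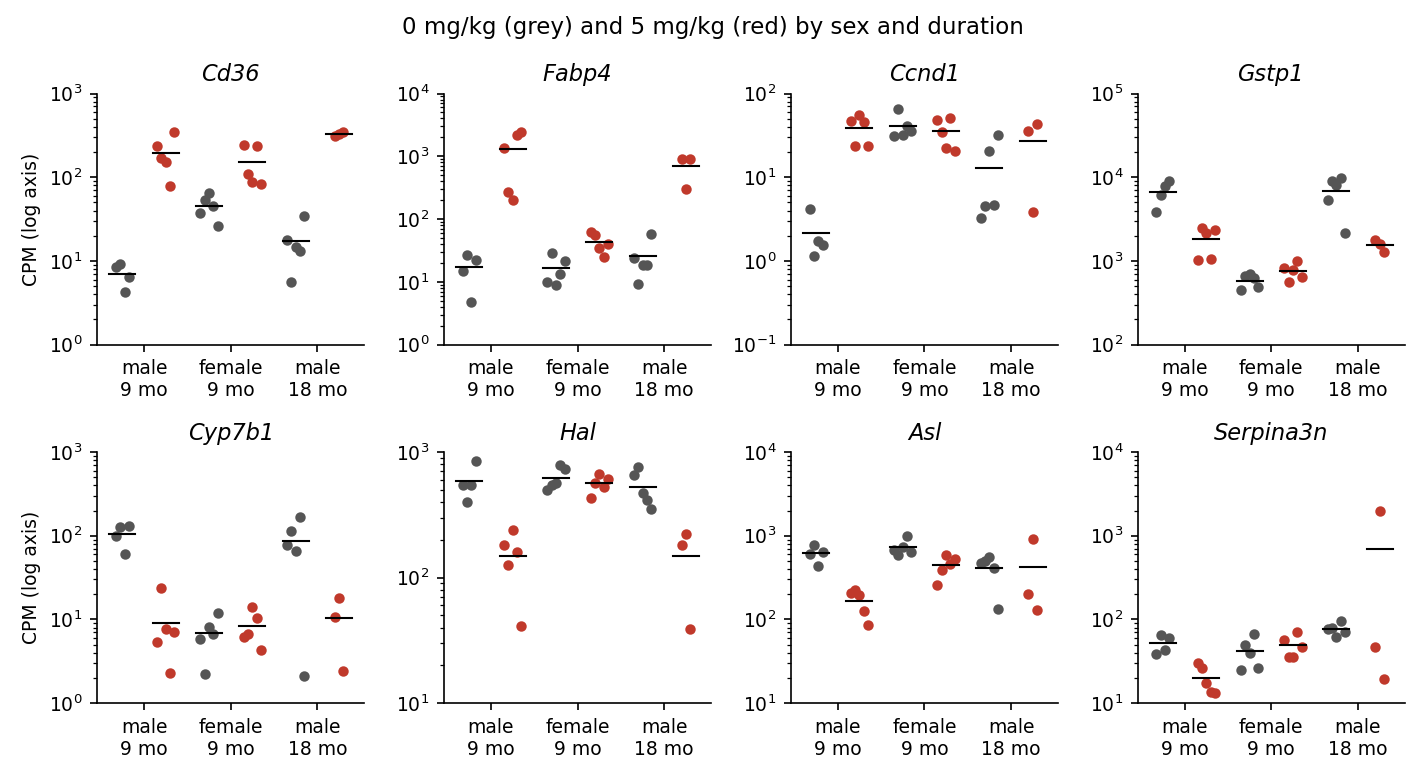
CPM on a log axis in each mouse at 0 mg/kg (grey) and 5 mg/kg (red) for males at 9 months, females at 9 months and males at 18 months, with lines for group means, for 8 genes whose response differed by sex or duration. Cd36 and Ccnd1 start lower in control males than in control females, Gstp1 and Cyp7b1 start higher, and 1 treated 18-month male stands far above the other 2 for Asl and Serpina3n.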

How the data were processed

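Liver sections from 92 CD-1 mice in 20 groups were measured by TempO-Seq, and the 9 libraries compared here are named by replicate numbers given in accession order. The authors deposited raw counts for 30146 probes, made with bcl2fastq 2.17.1.14 and Bowtie per the submitters' processing notes; no source used here names the Bowtie version, its settings or the genome build. The counts were summed by gene symbol to 21400 genes. Reads carried no molecular identifier that the labels mention, so intervals and floors cover counting error only.

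Counts were fitted with edgeR 4.0.16 in R 4.3.3 (TMM scaling, filterByExpr, glmQLFit and glmQLFTest) over 24 male 9-month libraries, and the sex and duration differences over all 92. Control female replicate 3 at 18 months, among the 92, held only 403108 counts. A value of 0.05 was the threshold for adjusted p. Alternatives were DESeq2 1.42.0, RLE scaling, no filter, other sets of libraries, single probes, stricter thresholds and leaving out libraries. For the sex and duration differences DESeq2 was run on the 4 groups of each comparison alone. The floor for a gene without control counts was 3 counts over the 4 controls. A fit of the 9 libraries of the 2 groups was tested on simulated data. The fits of 24 and of 92 libraries were not tested in this way.

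The members, the 53 gene lists and the tests were chosen with earlier results of these data known. Genes were named by rule: the 12 largest rises and falls with a mean of at least 5 counts in the lower and 20 in the higher group, the 6 most abundant rises from and falls to a mean under 5 counts, the 3 called members of smallest adjusted p in each list, the 4 largest differences each way by sex and by duration, and 18 genes fixed by name. Members that make up a count of 5 or fewer, and markers named as low, were named after their values were seen. Some genes within the rule are not reported here. Promoter windows and symbols came from RefSeq tables of GRCm38.p6. Separate sections came from separate mice per the labels, and 0 value columns were left without a sample.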

Additional observations from a re-analysis of the deposited data

Results flagged for a closer look

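By Dixon's test of the gap to the nearest value, 1 mouse stood apart from its group in 44 of 342 values examined. About 1 in 20 would be flagged by chance for normally distributed values, a spread that CPM near 0 need not have. Counts in only 1 mouse among zeros are always flagged, as with Cxcr1 and Sptlc3 in control replicate 4. The 44 therefore cannot be set against that rate. Among the treated mice, replicate 4 was the extreme for Afp (155 CPM), Akr1c18 (75.7 CPM), Alb (3775 CPM), Prom1 (32.8 CPM), Pnpla5 (41.8 CPM) and Rdh16f2 (53.96 CPM) on the high side, and for Ehhadh (5622 CPM), Hadhb (226 CPM), Pex19 (240.4 CPM) and Ucp3 (5.88 CPM) on the low side. Its summed hepatocyte markers (40287 CPM) and B and plasma cell markers (303 CPM) were extreme as well. Replicate 5 was the highest for Atf3 (69.4 CPM), Cenpf (9.99 CPM), Col1a1 (204 CPM), Diaph3 (16.6 CPM), Fdps (1469.8 CPM), Ly6d (388 CPM), Pdk4 (67.5 CPM), Scd2 (301 CPM) and the summed stellate cell markers (985 CPM). It was the lowest for Cpt1a (10.2 CPM) and the summed Y-linked genes (14.6 CPM). Replicate 2 was the highest for Cyp2c50 (3.54 CPM), Cyp4f14 (19.2 CPM), Cyp7b1 (25.2 CPM) and Mcm6 (102 CPM), and replicate 3 for Irx1 (0.248 CPM).

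Among the controls, replicate 1 was the extreme for Apoc3 (2817 CPM), Crp (763 CPM), Gsta4 (36.6 CPM), Pex19 (275 CPM) and Pklr (55.9 CPM), and replicate 2 for Itih4 (191 CPM) and Mki67 (3.88 CPM). Control replicate 3 was the extreme for Arf1 (440.0 CPM) and C9 (3010.1 CPM). Control replicate 4 was the extreme for Akr1c18 (0.731 CPM), Akr1d1 (178 CPM), Cxcr1 (0.183 CPM), Lama3 (100.1 CPM), Mmp12 (0.548 CPM), Sptlc3 (0.183 CPM) and Ttr (2009 CPM).

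By a test of the difference itself, the male response at 9 months exceeded the female one by 4.41 log2 units for Ccnd1, 3.05 for Cd36, 4.83 for Fabp4, 12.52 for Diaph3, 10.64 for Exo1, 12.27 for F2rl3 and 9.12 for Sybu, the last 4 being fitted values of genes without counts in some group. The male minus female difference was -3.76 for Cyp7b1, -5.75 for Elovl3, -2.29 for Gstp1, -1.82 for Hal and -5.32 for Slc22a28. In males the 9-month minus 18-month difference was -1.91 for Asl, -7.60 for Olig1, -7.43 for Ren1, -8.15 for Saa1, -8.28 for Saa2, -4.53 for Serpina3n, 15.54 for Pnpla5 and 3.37 for Rdh16f2.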

How the results depend on the processing

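The count of 1437 genes that differed at 5 mg/kg stayed within 1.5 times under DESeq2 (1742), RLE scaling (1416), no filter (1211), a fit of the 2 groups alone (1074), a fit of all 92 libraries (968) and a fold of at least 1.5 (1268). It was 799 without treated replicates 4 and 5, 705 at an adjusted p under 0.01, and 1043 to 1402 with single libraries left out. The 35 differences between the sexes became 64 in a fit of the 4 groups and 477 with DESeq2 on those 4 groups. They were 13 without replicates 4 and 5, and 20 to 57 with single libraries left out. They were 22 without control male replicate 4, 21 without treated male replicate 5, 20 and 57 without control female replicates 3 and 4, and 23 without treated female replicate 3. The 29 differences by duration became 3 in a fit of the 4 groups and 5 without replicates 4 and 5, and 1 to 91 with single libraries left out. They were 18 without 9-month control replicate 2, 19 without 9-month treated replicate 4, 8 without 18-month control replicate 5, and 91, 1 and 70 without 18-month treated replicates 1, 2 and 3. The causes were not tested.

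Some log2 changes turned in sign. Without replicates 4 and 5 those of Afp and Alb were -1.29 and -0.19, and without replicate 4 alone -1.12 and -0.24. Arf1 gave 0.16 without control replicate 3 and 1.93 with its probe 1 alone. Mki67 gave 2.05 without control replicate 2, and 0.24 and 0.07 without treated replicates 1 and 2. Ppara gave -0.00083 and -0.12 without control replicates 3 and 4, -0.09 and -0.03 without treated replicates 1 and 3, and -0.43 with its probe 2 alone. Leaving out single libraries ended the call of 20 named genes at least once, and leaving out replicates 4 and 5 that of 33. Of 168 single-probe values 142 kept their direction and side of the threshold, 22 lost the call, 2 gained it and 2 turned. Over all single libraries left out, Afp ranged from -1.12 to 2.33, Alb from -0.24 to 0.17, Arf1 from -5.69 to 0.16, Mki67 from -0.46 to 2.05 and Ppara from -0.12 to 0.27. No paired analysis was possible because the replicate numbers are only accession order and pair no animals. The limit that 3 counts over the 4 controls allow was 0.143 CPM.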
